A study of Mus musculus with 18 samples.

Results

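The testis-specific serine kinases are described here by 6 genes, Tssk1, Tssk2, Tssk3, Tssk4, Tssk5 and Tssk6, chosen by their symbols in the deposited expression table. All 6 were found among its 20985 rows. The table holds RNA sequencing of whole testis from ICR mice at 10 weeks of age, with 6 groups and 3 libraries in each. A first group was labelled only as control, and a second group, AOS, received AOS at 10 mg/kg. The remaining 4 groups were on a high-fat diet: HFD had the diet alone, HFD-AOS also received AOS at the same dose, and HFD-AOSFMT and HFD-conFMT received FMT labelled for AOS 10 mg/kg and for control. Neither AOS nor FMT is spelled out in the sources used here, and the FMT donors are not described. All animals shared the strain, the age and the tissue. The series asks whether FMT and AOS alter the testis of animals on the diet. Whether replicates were separate animals is not stated, so the p-values cover only the spread among these libraries, which may be technical in part.

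These kinases belong to the calcium/calmodulin-dependent and AMP-activated branch of the kinome and are made almost exclusively in male germ cells after meiosis. Their transcripts accumulate in spermatids, the haploid cells that remodel into sperm. Tssk1 and Tssk2 bind and phosphorylate the scaffold protein TSKS, and male mice that lack both genes are infertile. Tssk3 is switched on by the kinase PDPK1. Tssk4 phosphorylates ODF2, a protein of the outer dense fibres of the sperm tail. Tssk6 is needed for chromatin condensation and for fusion of sperm with the egg, and it is folded with the help of the co-chaperone TSACC.

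By the GENCODE annotation of GRCm38, the assembly that mm10 names, Tssk1 (chr16:17894223-17897922) and Tssk2 (chr16:17898637-17900024) are single-exon genes on the plus strand with 714 bases between them. Tssk6 (chr8:69902184-69903518, plus strand) also has 1 exon. Tssk3 (chr4:129489014-129491022, minus strand) has 2 exons, Tssk4 (chr14:55650184-55652539, plus strand) has 4 and Tssk5 (chr15:76371952-76374938, minus strand) has 8. The coding sequences of Tssk1 and Tssk2 were identical at 81.9% of 1045 aligned bases, and the other 14 pairs of members at 62.2% to 67.6%. The longest identical run of Tssk1 and Tssk2 was 113 bases, from base 371 of both coding sequences, while no other pair shared more than 14 bases in a row. This run is shown because a read that lies wholly inside it cannot be assigned to 1 of the genes by its own sequence.
Tssk1 and Tssk2: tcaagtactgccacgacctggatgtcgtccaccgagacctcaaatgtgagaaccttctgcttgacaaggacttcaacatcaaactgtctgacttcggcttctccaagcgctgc

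The run spans the catalytic core. The stretches below, from GENCODE transcripts, reach from the codons for histidine, arginine and aspartate of the catalytic loop to those for aspartate, phenylalanine and glycine of the magnesium-binding loop, both in capitals. They show how the members diverge over the same piece of the active site. Tssk2 has the sequence of Tssk1 there, and in the Tssk4 transcript used the first set of codons was not found.
Tssk1: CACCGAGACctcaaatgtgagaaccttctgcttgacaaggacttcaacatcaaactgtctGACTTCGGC
Tssk3: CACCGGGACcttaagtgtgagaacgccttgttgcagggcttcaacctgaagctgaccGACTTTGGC
Tssk5: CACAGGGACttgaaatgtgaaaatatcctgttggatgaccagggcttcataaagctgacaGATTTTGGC
Tssk6: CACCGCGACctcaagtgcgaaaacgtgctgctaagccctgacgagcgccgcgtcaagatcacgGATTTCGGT

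Of all 50-base windows of a transcript, 3.83% were shared with another gene for Tssk1, 9.34% for Tssk2 and 25.3% for Tssk6, and 0% for Tssk3, Tssk4 and Tssk5. The windows of Tssk2 were all shared with Tssk1. Those of Tssk6 were shared with Ndufa13, a subunit of mitochondrial complex I whose exons overlap 375 bases of Tssk6 on the opposite strand. The 15 remaining windows of Tssk1 lay antisense to Dgcr2, which contains Tssk1. The strand setting of the authors' counting is not given in the sources used here, so reads of overlapping antisense genes cannot be told apart. The levels of Tssk1, Tssk2 and Tssk6 are uncertain to that extent. The same may hold for Tssk3 if the authors used RefSeq, whose span of Tssk3 overlaps Fam229a on the opposite strand.

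Upstream sequence is shown for the tandem pair and for the gap between Tssk3 and Fam229a, which GENCODE places on opposite strands, pointing away from each other with 167 bases between their ends. The RefSeq span of Tssk3 reaches chr4 base 129491730, past the start of Fam229a at 129491190, so by that model the genes overlap and there is no gap. RefSeq promoter entries (GRCm38.p6) were found for 5 of the 6 members, Tssk5 being the exception. Only bases outside annotated exons are printed. Capitals mark TGACNTCA on either strand, a looser spelling of the palindrome bound by CREB and by CREM, the activator of many spermatid genes.
Tssk1, chr16:17894146-17894202, plus strand: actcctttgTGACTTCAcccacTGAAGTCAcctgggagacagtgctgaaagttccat
Tssk2, chr16:17898563-17898636, plus strand: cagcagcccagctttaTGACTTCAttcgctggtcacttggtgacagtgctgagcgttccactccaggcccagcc
Fam229a to Tssk3, chr4:129491023-129491189, plus strand: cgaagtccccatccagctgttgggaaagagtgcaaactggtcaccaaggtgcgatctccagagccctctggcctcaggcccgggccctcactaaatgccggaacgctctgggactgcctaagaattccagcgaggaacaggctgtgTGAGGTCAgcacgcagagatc

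Tssk1 held 2 matches and Tssk2 held 1, and their printed stretches shared an identical run of 11 bases, gacagtgctga. In the gap between Tssk3 and Fam229a, 1 match lay 21 bases before the RefSeq start of Fam229a. The motif, chosen after these sequences were seen, was present in 7.59% of 27025 RefSeq promoters of the same 250 bases. The RefSeq windows of Tssk3, Tssk4 and Tssk6 did not hold it. That of Tssk3 lies wholly in its GENCODE exon and is not the gap printed above. Of 3 other motifs searched on both strands, TGACG, which overlaps one spelling of the first, was found in the window of Tssk6 and in 17.9% of all promoters. GTTGCC (10.5% of promoters) and TATAAA (12.97%) were found in 0 of the members' windows. These matches describe letters only.

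Levels are in FPKM, fragments scaled to transcript length and library size, and summed to between 588080.8 and 637004.9 FPKM per library. The number of reads behind them is unknown, and counting error cannot be given. The whole tissue carried the markers of its cells: all 12 round spermatid and all 15 elongating spermatid markers had a mean of at least 1 FPKM. A pair of libraries stood apart in epididymal transcripts, control 3 with 442 FPKM and HFD-conFMT 2 with 421 FPKM over 8 markers, where the other 16 libraries held 244 to 348 FPKM. Leaving both out moved a log2 fold change of a kinase by at most 0.044. Only 3 of the 8 markers had a mean of at least 1 FPKM. The mean log2 level of those 3, centred over the libraries, was 1.85 in control 3 and 1.87 in HFD-conFMT 2. HFD-conFMT 3 (0.81) and control 1 (0.29) were also above the remaining libraries (-0.54 to -0.23) and were kept. The median absolute log2 difference between 2 libraries was 0.0785 to 0.137 inside a group and 0.0770 to 0.152 across groups.

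All 6 kinases passed the filter of a mean of at least 1 FPKM, which kept 13105 genes. FPKM is a level per transcript length, so levels can be set side by side. Over the 18 libraries Tssk2 was highest, at 383 FPKM ± 17.7 (SD, n = 18), and ranked 232nd of the genes. Tssk1 followed at 282 ± 10.96, Tssk6 at 262 ± 22.5, Tssk3 at 197 ± 10.7 and Tssk4 at 129 ± 8.16 FPKM. Tssk5 was far lower, at 11.2 ± 1.04 FPKM, 11.5-fold under Tssk4. The order held in 18 of 18 libraries for each pair of neighbours except Tssk1 and Tssk6, where Tssk1 was higher in 16. The ranges of Tssk1 and Tssk6 overlapped, and so did those of Tssk6 and Tssk3. The place of Tssk1 depends on the gene model, since GENCODE gives its transcript 3700 bases and RefSeq 1451, and the model used by the authors is not given.

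The coefficient of variation over all libraries was 3.88% for Tssk1, 4.62% for Tssk2, 5.41% for Tssk3, 6.33% for Tssk4, 8.60% for Tssk6 and 9.30% for Tssk5. Its median was 5.75% over the 1230 genes whose mean reached 100 FPKM and 8.67% over all 13105 genes. Tssk1, Tssk2 and Tssk3 were below the first of these medians, and Tssk4 and Tssk6, whose levels are also above 100 FPKM, were above it. Between the lowest and the highest library, Tssk1 differed 1.14-fold and Tssk6 1.40-fold.

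**Figure D1:**
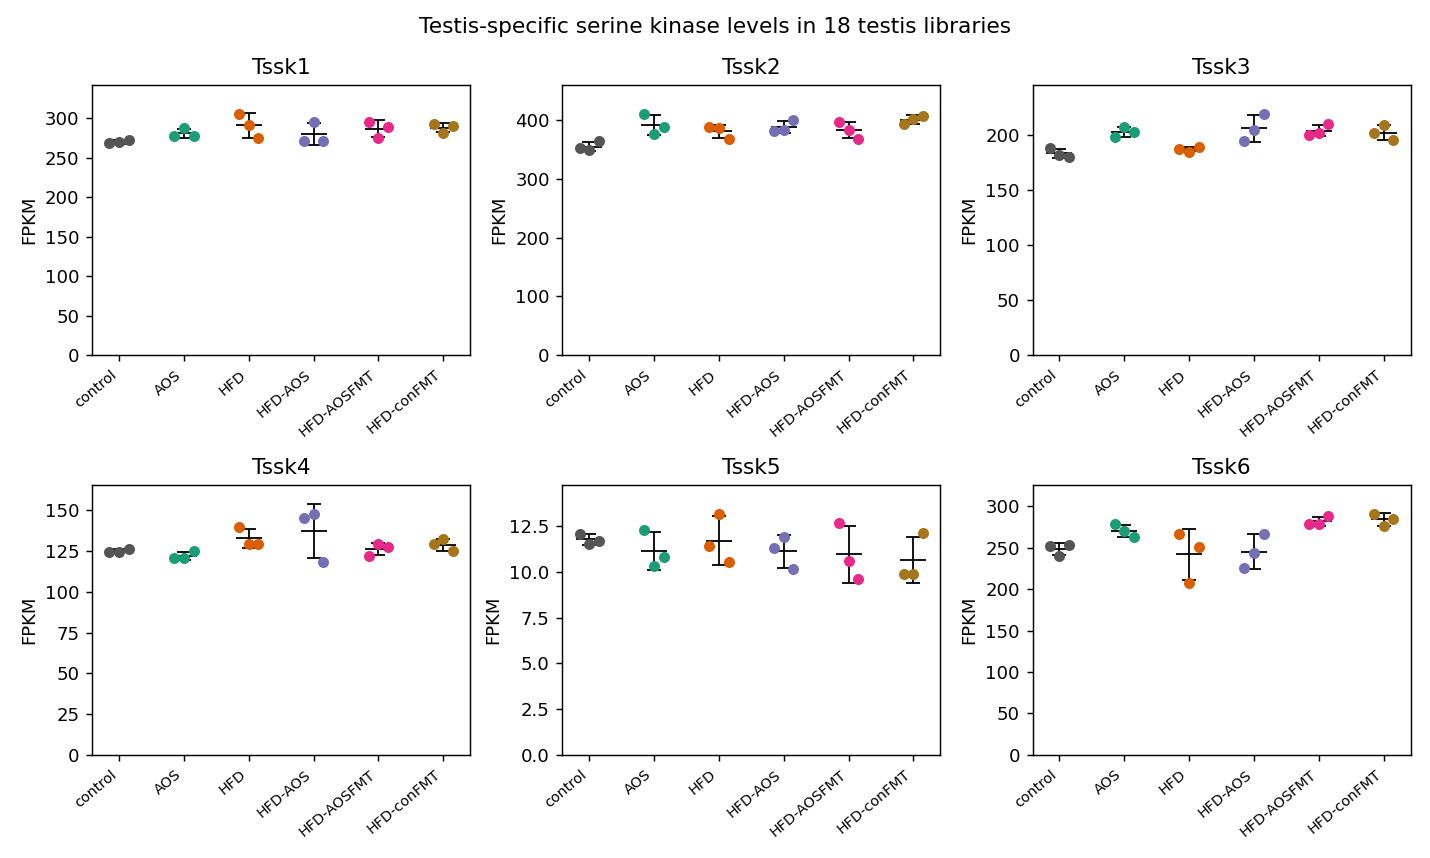
FPKM of each kinase (vertical axes, from 0) in the 6 groups (horizontal axes). Points are the 3 libraries of a group, and the bar with whiskers is their mean ± SD. Tssk2 and Tssk3 are lowest in the controls, and HFD 2 sits apart for Tssk6 at 207 FPKM.

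Tssk1 was at 268, 269 and 273 FPKM in the controls and at 277, 287 and 277 FPKM with AOS. It was at 305, 292 and 275 FPKM on the diet and at 271, 295 and 271 FPKM on the diet with AOS. With FMT it was at 295, 275 and 289 FPKM (HFD-AOSFMT) and at 292, 281 and 290 FPKM (HFD-conFMT). The 3 controls were within 5 FPKM of each other, and only HFD-AOS had libraries in their range.

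Tssk2, the tandem partner that acts on the same scaffold, was at 353, 349 and 364 FPKM in the controls. It was at 410.4, 377 and 388 FPKM with AOS, and at 388, 387 and 368 FPKM on the diet. The controls were the 3 lowest of the 18 libraries, and the share of all genes for which this holds was not counted. The remaining groups on the diet stood at 381, 383 and 399.6 FPKM (HFD-AOS), 397, 384 and 368 FPKM (HFD-AOSFMT), and 393, 402 and 407 FPKM (HFD-conFMT).

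Tssk3, the smallest of the kinases with 268 codons, was at 188, 182 and 179.9 FPKM in the controls and at 187, 185 and 189 FPKM on the diet. It was at 198, 207 and 203 FPKM with AOS and at 194, 204 and 219 FPKM with both. The FMT groups were at 199.8, 201 and 209 FPKM (HFD-AOSFMT) and at 202, 208 and 195 FPKM (HFD-conFMT). Every control and HFD library lay below every library of the other 4 groups. This split was not a planned comparison, and the share of all genes split in this way was not counted.

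Tssk4 was at 125, 125 and 126 FPKM in the controls, at 121, 121 and 125 FPKM with AOS, and at 139.8, 129.7 and 129 FPKM on the diet. In HFD-AOS it was split, at 145, 148 and 118 FPKM, which are the 2 highest values and the lowest value of all 18. The FMT groups were at 122, 129 and 127 FPKM (HFD-AOSFMT) and 129, 132 and 125 FPKM (HFD-conFMT). Summed round spermatid markers stood at 2691, 2630.1 and 2262 FPKM in the same 3 HFD-AOS libraries.

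Tssk5 ranged from 9.61 FPKM in HFD-AOSFMT 3 to 13.2 FPKM in HFD 2, and its group means from 10.6 FPKM in HFD-conFMT to 11.8 FPKM in the controls. All groups overlapped.

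Tssk6, the kinase of chromatin condensation and gamete fusion, was at 251, 240.2 and 253 FPKM in the controls and at 278, 269.9 and 263 FPKM with AOS. It was at 267, 207 and 251 FPKM on the diet and at 225, 244 and 267 FPKM on the diet with AOS. It was at 279, 278 and 288 FPKM in HFD-AOSFMT and at 291, 276 and 285 FPKM in HFD-conFMT. Every FMT library was above every control, HFD and HFD-AOS library, but AOS 1 lay within the range of the FMT libraries. This was not a planned comparison, and the share of all genes split in this way was not counted. HFD 2 was the lowest of the 18. This library also had the lowest summed elongating spermatid markers, 53285 FPKM.

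No kinase differed between groups by limma's moderated tests with Benjamini-Hochberg adjustment over 13105 genes. In the F test over the 6 groups the adjusted p was 0.130 for Tssk3, 0.176 for Tssk2, 0.180 for Tssk6, 0.473 for Tssk4, 0.510 for Tssk1 and 0.845 for Tssk5. The F test called 0.328% of all genes and 0 of 6 kinases. Unadjusted, 3 of the 6 kinases had a p under 0.05 in it, beside 18% of all genes. Without HFD-AOS replicate 3, the library with the lowest Tssk4, the F test called Tssk4 with an adjusted p of 0.0424, and 0 of the other 5. The share of all genes called in that setting is not given here. Over all alternatives the F test called 1 to 665 genes, against 43 with all libraries, so this call is not set against a background.

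On the diet alone, Tssk1 and Tssk2 were above the controls by 7.52% (95% interval 0.755% to 14.7%) and 7.25% (1.02% to 13.9%). Here and below, percent differences between groups are limma's log2 fold changes of FPKM + 1 written as percent, not ratios of mean FPKM. Tssk4 was 6.01% higher (-3.54% to 16.5%), Tssk3 at 1.99% (-4.13% to 8.50%), Tssk5 at -0.92% (-14.8% to 15.2%) and Tssk6 at -3.14% (-13.1% to 7.999%). By limma's test the log2 fold changes of Tssk1 (0.10, SE 0.044, adjusted p 0.713) and Tssk2 (0.10, SE 0.041, adjusted p 0.696) missed the threshold, and 0 of 6 kinases and 0% of all genes were called. At an unadjusted p under 0.05 these were 2 kinases and 6.75% of genes. Tssk1, Tssk2 and Tssk4 had all 3 HFD libraries above all controls, as did 5.17% of all genes, while 0 kinases and 7.35% of genes were lower without overlap. All 12 round spermatid markers also had higher means on the diet, with a summed level of 2352 to 2506 FPKM against 2259 to 2309 FPKM. Elongating spermatid markers were higher for 11 of 15, with overlapping sums of 53285 to 68093 FPKM against 56662 to 63218 FPKM. Of all 13105 genes, 7183 had lower and 5922 higher means on the diet. Macrophage markers had lower means for 6 of 7 and endothelial markers for 3 of 3. The part of these markers in the differences was not tested. In whole tissue, a different number of spermatids and a different amount of RNA per spermatid cannot be told apart. Taken relative to the spermatid markers, which moved the median of all genes from -0.01 to -0.09, the differences of Tssk1 and Tssk2 were 0.03 and 0.03. Without HFD replicate 1, Tssk1 was at 0.07 and Tssk4 at 0.05 rather than 0.08. Without HFD replicate 2, Tssk6 turned from -0.05 to 0.06, and its sign also turned with array weights.

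With AOS and no diet, Tssk2 and Tssk3 stood 10.3% (95% interval 3.90% to 17.1%) and 10.6% (3.95% to 17.6%) above the same controls. Tssk6 was 8.83% higher (-2.40% to 21.3%) and Tssk1 3.90% higher (-2.64% to 10.9%). Tssk4 was at -2.45% (-11.2% to 7.21%) and Tssk5 at -5.22% (-18.5% to 10.2%). The log2 fold changes were 0.14 (SE 0.041) for Tssk2 and 0.15 (SE 0.042) for Tssk3, both with an adjusted p of 0.140 by limma. It called 0 of 6 kinases and 0.0229% of genes. At an unadjusted p under 0.05 these were 2 kinases and 15.8% of genes. Tssk1, Tssk2, Tssk3 and Tssk6 had all AOS libraries above all controls, where 7.96% of all genes did, and 0 kinases and 15.2% of genes were lower without overlap.

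Elongating spermatid markers moved with this comparison: 12 of 15 had higher means with AOS, and they summed to 68303 to 70176 FPKM against 56662 to 63218 FPKM in the controls. Leydig cell markers had lower means for 8 of 8, with sums of 2592 to 3534 FPKM against 3542 to 4057 FPKM, and the means were lower for 7 of 7 macrophage, 5 of 5 peritubular, 3 of 3 endothelial, 3 of 3 blood and 9 of 12 spermatocyte markers. The spermatocyte sums went the other way, at 3237 to 3336 FPKM with AOS against 3135 to 3248 FPKM in the controls, with overlap. Sums did not overlap for endothelial (5.91 to 6.09 against 6.33 to 7.36 FPKM) and blood markers (66.4 to 98.8 against 99.8 to 141 FPKM). Of all 13105 genes, 7839 had lower and 5265 higher means with AOS. Means were higher for 6 of 10 Sertoli cell, 4 of 7 spermatogonia, 7 of 12 round spermatid and 1 of 3 epididymal markers. The part of these markers in the result was not tested. Relative to the spermatid markers the differences were 0.06 for Tssk2 and 0.06 for Tssk3, and Tssk1 was at -0.03. With every library scaled to the same sum they were 0.10 for Tssk2 and 0.10 for Tssk3.

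**Figure D2:**
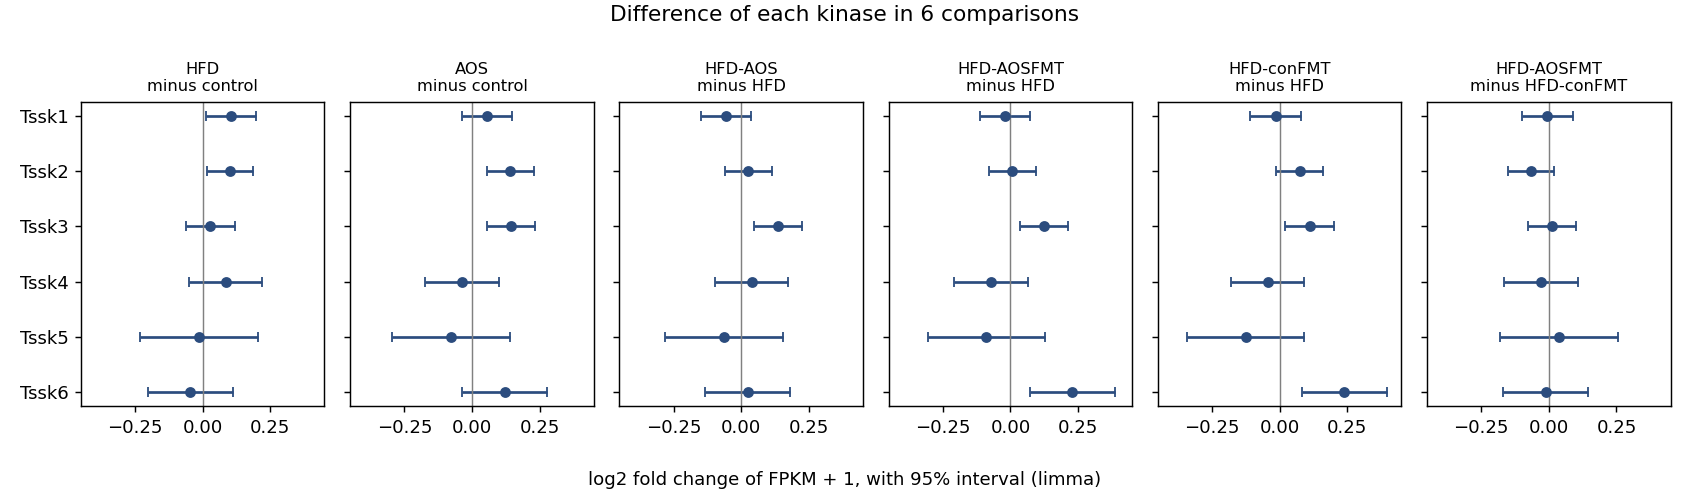
Log2 fold change of FPKM + 1 (horizontal axes) of each kinase (vertical axis) in the 6 comparisons between groups, as points with 95% intervals from limma. Intervals of Tssk3 lie above 0 in 4 of the 6 panels, before any adjustment for the number of genes.

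On the diet, limma's fold change put Tssk3 9.94% higher with AOS (95% interval 3.34% to 16.96%), and the other 5 kinases at -4.34% to 2.68%. The log2 fold change of Tssk3 was 0.14 (SE 0.042, limma adjusted p 0.245), and relative to the spermatid markers it was 0.04. Limma called 0 of 6 kinases and 0% of genes. At an unadjusted p under 0.05 these were 1 kinase and 12.7% of genes. Only Tssk3 had all HFD-AOS libraries above all HFD libraries, against 4.9% of genes, and 0 kinases but 8.49% of genes were lower without overlap. Elongating markers were higher for 12 of 15, with sums of 67686 to 77891 FPKM in HFD-AOS and 53285 to 68093 FPKM on the diet alone. Round spermatid markers were higher for 8 of 12 and spermatocyte markers lower for 10 of 12. The spermatocyte sums overlapped, at 2929 to 3335 FPKM in HFD-AOS against 3161 to 3287 FPKM on the diet alone. Of all 13105 genes, 5753 had higher and 7348 lower means in HFD-AOS. Macrophage markers were higher for 6 of 7, with sums of 40.6 to 45.6 FPKM against 36.7 to 38.9 FPKM. The part of these markers was not tested. Tssk4 was at 2.68% (-6.57% to 12.8%), and without HFD-AOS replicate 3 its log2 fold change was 0.14 rather than 0.04 (adjusted p 0.201).

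The effects of AOS with and without the diet were compared by the interaction term. For Tssk3 the difference of effects was -0.01 (95% interval -0.13 to 0.12), and for Tssk2 it was -0.12 (-0.24 to 0.01, limma adjusted p 0.740). The adjusted p of the other kinases ran from 0.772 to 0.990, and 0 of 6 kinases and 0% of genes were called, with 0 kinases and 6.86% of genes at an unadjusted p under 0.05.

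FMT on the diet came with higher means of Tssk6 and Tssk3 under both labels. Tssk6 was 17.1% above HFD (95% interval 5.05% to 30.6%) in HFD-AOSFMT and 18% above it (5.83% to 31.6%) in HFD-conFMT. Tssk3 was 8.92% (2.38% to 15.9%) and 7.98% (1.496% to 14.9%) higher. Tssk2 stood at 0.53% (-5.31% to 6.73%) and 5.26% (-0.85% to 11.8%). By limma's fold changes, Tssk1, Tssk4 and Tssk5 were lower than HFD in both, by at most 8.34%, with intervals that held 0.

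By limma's test Tssk6 had log2 fold changes of 0.23 (SE 0.074, adjusted p 0.377) and 0.24 (SE 0.074, adjusted p 0.236), and Tssk3 of 0.12 (adjusted p 0.391) and 0.11 (adjusted p 0.327). In HFD-AOSFMT against HFD, 0 of 6 kinases and 0.0229% of genes were called, and 2 kinases and 9.82% of genes had an unadjusted p under 0.05. In HFD-conFMT against HFD the same counts were 0 of 6 kinases and 0% of genes called, and 2 kinases and 12.3% of genes unadjusted. Tssk3 and Tssk6 had all HFD-AOSFMT libraries above all HFD libraries (8.34% of genes), and Tssk2, Tssk3 and Tssk6 all HFD-conFMT libraries (10.3% of genes). Lower without overlap were 0 kinases in either, with 8.88% and 9.83% of genes. Both comparisons, and that of HFD-AOS with HFD, share the 3 HFD libraries. Elongating markers had higher means than HFD for 12 of 15 in HFD-AOSFMT (sums of 65176 to 67873 FPKM) and 10 of 15 in HFD-conFMT (67975 to 72748 FPKM), and round markers lower means for 10 of 12 in both. Of all 13105 genes, 6204 had higher and 6898 lower means in HFD-AOSFMT, and 6450 had higher and 6655 lower means in HFD-conFMT. Macrophage markers were higher for 6 of 7 in both, with sums of 38.7 to 44.3 FPKM and 41.9 to 46.4 FPKM against 36.7 to 38.9 FPKM, and blood markers for 3 of 3 in both. Spermatocyte markers were lower for 9 of 12 and 10 of 12, and peritubular markers for 5 of 5 in HFD-AOSFMT and 1 of 5 in HFD-conFMT. The spermatocyte sums went the other way, with means of 3320 and 3289 FPKM against 3239 FPKM in HFD and overlapping ranges. The part of these markers was not tested. Without HFD replicate 2, the differences of Tssk6 were 0.12 (adjusted p 0.820) and 0.13 (adjusted p 0.617). Without HFD replicate 1 they were 0.30 and 0.31. Scaling every library to the same sum took Tssk3 in HFD-conFMT from 0.11 to 0.06.

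The label of the FMT separated no kinase. HFD-AOSFMT stood at -0.74% (95% interval -10.98% to 10.7%) of HFD-conFMT for Tssk6, 0.87% (-5.18% to 7.32%) for Tssk3 and -0.41% (-6.68% to 6.28%) for Tssk1. For Tssk2 it was -4.49% (-10.0% to 1.40%), for Tssk4 -1.92% (-10.8% to 7.79%) and for Tssk5 2.60% (-11.7% to 19.3%). The groups overlapped for all 6, where 4.68% of genes were higher and 5.39% lower without overlap. Limma gave an adjusted p of 0.9996 for each kinase, called 0 of them and 0.00763% of genes, and gave an unadjusted p under 0.05 for 0 kinases and 3.12% of genes.

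The sign of several small differences turned under at least 1 of 3 other scalings (quantile normalization, the same sum, the spermatid markers). These were Tssk3 and Tssk5 for HFD against control, Tssk1 for AOS against control, Tssk2, Tssk4 and Tssk6 for HFD-AOS against HFD, Tssk2 for HFD-AOSFMT against HFD, and Tssk1 and Tssk6 between the FMT labels. All of their intervals held 0, and scaling to the same sum or to the markers shifts the kinases together with all other genes of a library.

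The genes these kinases work with were taken as a list of substrates, activators and chaperones, of which 11 were in the table and tested. In each of the 6 comparisons limma called 0 higher and 0 lower. Their median log2 fold changes ran from -0.03 to 0.01, beside -0.029 to -0.0020 over all genes. Tsacc, the co-chaperone of Tssk6, was at 373, 358 and 351 FPKM in the controls and at 410.1, 425 and 431 FPKM with AOS. It was at 388, 306 and 386 FPKM on the diet and at 465, 418 and 477 FPKM on the diet with AOS. Both AOS groups lay above their comparison group without overlap. So did 7.96% of all genes for AOS against control and 4.9% for HFD-AOS against HFD. The log2 fold changes of Tsacc were 0.23 (SE 0.079, limma adjusted p 0.194) and 0.34 (SE 0.079, adjusted p 0.215). With FMT, Tsacc was at 419.5, 379 and 441 FPKM (HFD-AOSFMT) and at 413.5, 438 and 427 FPKM (HFD-conFMT). HFD-conFMT also lay above HFD without overlap, as did 10.3% of all genes, so this was not particular to AOS.

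Tsks, the scaffold bound by Tssk1 and Tssk2, was at 291 FPKM ± 10.7 (SD, n = 3) with AOS and 259.8 ± 7.73 in the controls, a log2 fold change of 0.16 (SE 0.068, limma adjusted p 0.262). Spag16, a protein of the sperm tail axoneme, had a lower mean in HFD-AOS than in HFD (68.2 against 78.1 FPKM), with a log2 fold change of -0.19 (SE 0.047, limma adjusted p 0.215). Odf2, the substrate of Tssk4, had the highest level of the list, with group means of 1739 to 1793 FPKM. Pdpk1, the activator of Tssk3, had group means of 106 to 113 FPKM.

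Other kinases of the germ line reached the levels of this family. In a list of 14 tested germ cell kinases, Tesk1 had group means of 389.7 to 417 FPKM, Haspin, which phosphorylates histone H3, of 311 to 326 FPKM, and Stk33 of 199 to 216 FPKM. Of 15 tested kinases related to AMP-activated kinase the 3 highest were lower than 5 of the Tssk genes: Stk11, the upstream activator of that branch, with 61.0 to 66.2 FPKM, Mark2 with 21.1 to 23.4 FPKM and Brsk1 with 21.4 to 23.3 FPKM. Limma called 0 of either list in either direction in the 6 comparisons.

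Genes within 50 kb of a kinase gave 32 pairs to correlate over the 18 libraries, with 100000 permutations each and adjustment over the 32. Of these, 2 had an adjusted p under 0.05. The permutations, here and below, did not keep libraries within their groups, so their p-values also take in differences between groups. Tssk6 and Ndufa13, which share exonic bases on opposite strands, had a Pearson's r of 0.78 (permutation p 0.00021, adjusted 0.0056) and a Spearman's rho of 0.71 (permutation p 0.0015, adjusted 0.024). Within groups r was 0.69, and without HFD 2 and HFD-AOS 1 it was 0.72. Ndufa13 ranked 91st of 13099 genes by its r with Tssk6. Tssk3 and Fam229a, divergent by GENCODE but overlapping on opposite strands by RefSeq, had an r of 0.75 (permutation p 0.00035, adjusted 0.0056) and a rho of 0.73 (permutation p 0.00085, adjusted 0.024). That r was 0.73 without control 3 and HFD-AOS 3, and 0.45 within groups. The tandem pair Tssk1 and Tssk2 had an r of 0.41.

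**Figure D3:**
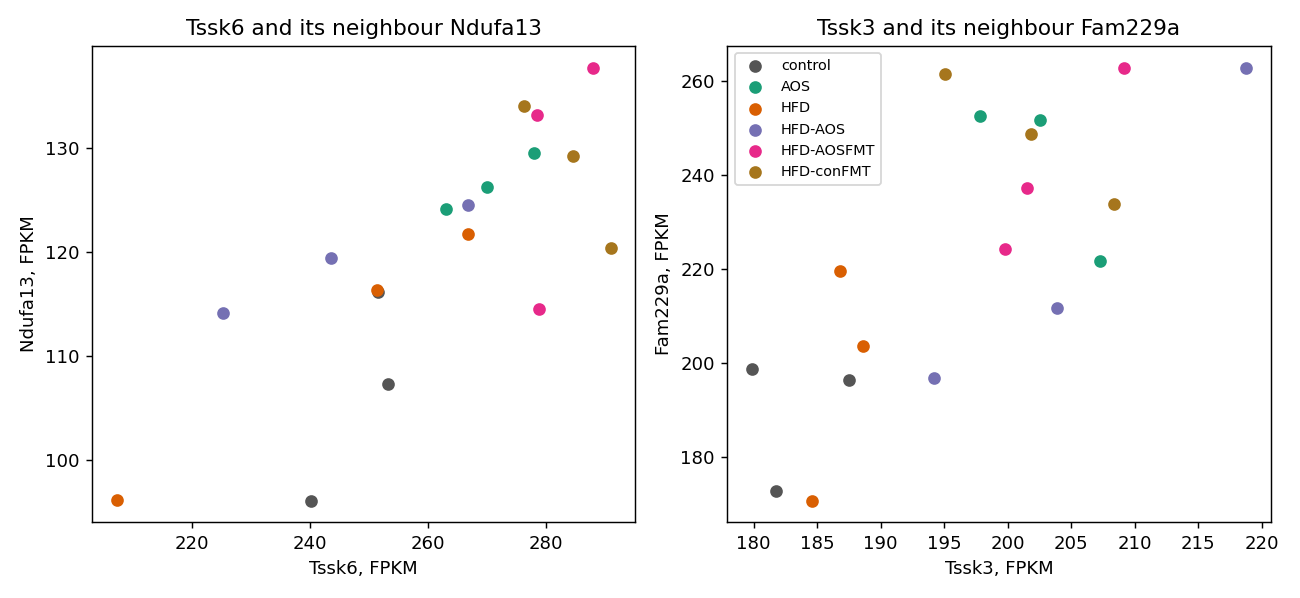
FPKM of Tssk6 against Ndufa13 (left) and of Tssk3 against Fam229a (right) in the 18 libraries, 1 point each, coloured by group. Both pairs are higher together (r 0.78 and 0.75), and HFD 2 and control 2 lie at the low end of both panels. Axes do not start at 0.

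Fam229a had a mean of 242 FPKM with AOS and 189 FPKM in the controls, a log2 fold change of 0.35 (SE 0.107, limma adjusted p 0.154). Ndufa13 had 127 and 106 FPKM, a log2 fold change of 0.25 (SE 0.087, limma adjusted p 0.193). In both comparisons of FMT with HFD, Fam229a was higher without overlap of the groups, and Ndufa13 overlapped.

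Among the kinases themselves, 0 of 15 pairs had an adjusted permutation p under 0.05. The strongest relation was negative, between Tssk3 and Tssk5, with r -0.60 (permutation p 0.0093, adjusted 0.132) and rho -0.61 (permutation p 0.0080, adjusted 0.121). It was -0.64 within groups and -0.57 without control 3 and HFD-AOS 3. Tssk3 and Tssk6 had r 0.53 (adjusted permutation p 0.132), rho 0.52 (adjusted 0.150), and r 0.45 within groups and 0.61 without the same libraries. Tssk2 and Tssk3 had r 0.51 (adjusted permutation p 0.132) and rho 0.41 (adjusted 0.273), but -0.18 within groups and 0.33 without control 1 and control 2.

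**Figure D4:**
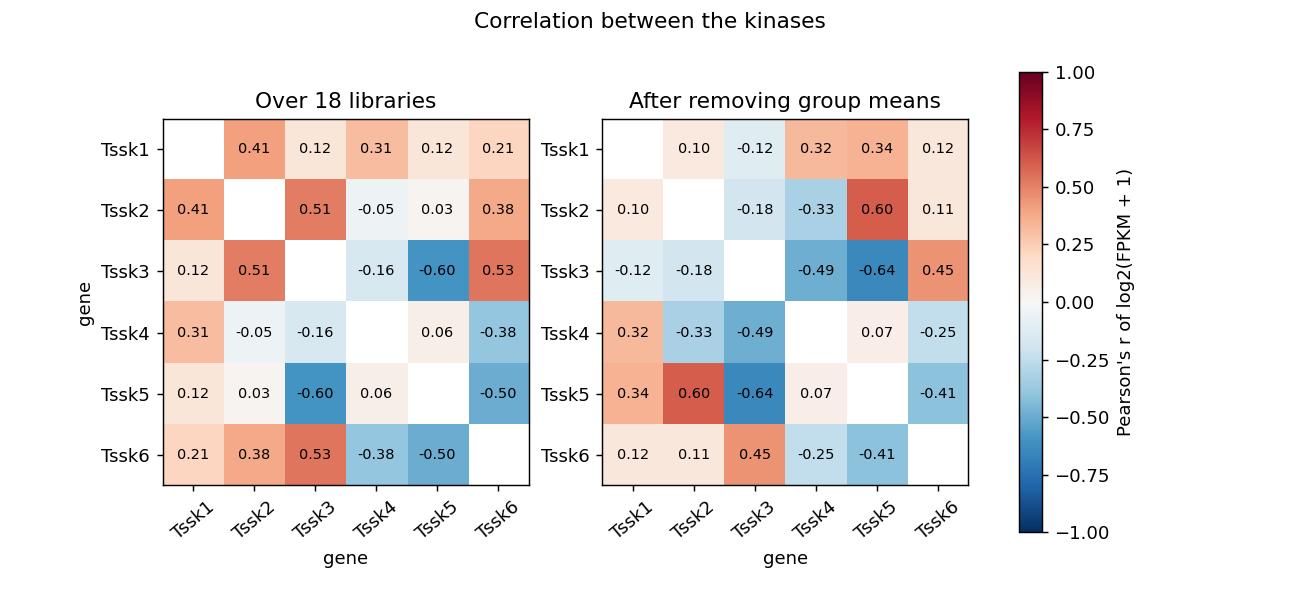
Pearson's r between the log2(FPKM + 1) values of the 6 kinases (both axes), over the 18 libraries on the left and after group means were removed on the right. Red is positive and blue negative. The pair Tssk3 and Tssk5 is at -0.60 and -0.64, and the pair Tssk2 and Tssk3 goes from 0.51 to -0.18.

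The kinases were also set against the mean of the round and of the elongating spermatid markers, 12 relations with adjustment over them. Tssk4 followed the round spermatid markers with r 0.87 (permutation p 6.0e-05, adjusted 0.00072) and rho 0.74 (permutation p 0.00065, adjusted 0.0078). Within groups r was 0.85, and without HFD-AOS 1 and HFD-AOS 2 it was 0.65. Tssk3 went with the elongating markers over the 18 libraries, with r 0.64 (permutation p 0.0035, adjusted 0.021) and rho 0.65 (permutation p 0.0045, adjusted 0.027). Within groups that relation was near 0, at r 0.08, so it lay mainly between groups. The r over all libraries was 0.57 without control 3 and HFD-AOS 3. With libraries scaled to the same sum it was 0.33, and that of Tssk4 was 0.84. The other 10 relations had an adjusted permutation p of at least 0.199 for r and 0.072 for rho. Among them, Tssk6 with the round markers went from r -0.46 to -0.81 when libraries were scaled to the same sum, and Tssk3 with the round markers from -0.06 to -0.77 within groups, both without a test.

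The genes most like each kinase over the 18 libraries differed between the members and are given as a description. Tssk1 was most like Calr3 (r 0.88), a testis calreticulin, then Lypd4 (0.86) and 1700001J03Rik (0.82). Tssk2 was most like Mrps36 (0.81), 4930404N11Rik (0.81) and 1700092M07Rik (0.80). Tssk3 was most like Ndufv3 (0.85), Atp6v1g1 (0.85) and Ocel1 (0.85). Tssk4 was most like Lyzl6 (0.91), a sperm lysozyme-like protein, N6amt1 (0.90) and Samt2 (0.89). Tssk5 was most like Arhgef3 (0.81), Dis3 (0.78) and Slc39a12 (0.78). Tssk6 was most like Pgp (0.93), Znrf4 (0.93) and Gpx4 (0.92), the selenoenzyme of the sperm mitochondrial capsule. The mean of the 6 centred kinases was most like Chn2 (0.82), Gng5 (0.81), Mrpl23 (0.80), Spata25 (0.79) and Tex43 (0.78).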

How the data were processed

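The authors deposited 1 table of FPKM values per gene and library, to 2 decimals, made from reads aligned by Bowtie 0.12.2 to mm10, per the submitters' processing notes. Its header names no unit. FPKM was inferred because library sums differ and, over 333 genes with 1 transcript, the smallest values above 0.05 fall with transcript length (Spearman's rho -0.667, across genes). The counting tool, gene annotation and strand are not stated there. Repeated symbols (6 rows) were dropped.

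Values were taken as log2(FPKM + 1), so a fold change slightly understates that of low genes. The 13105 genes whose mean reached 1 FPKM were kept. One limma model (3.58.1, R 4.3.3) with 6 group means, a mean-variance trend and 12 residual degrees of freedom gave two-sided p-values, adjusted by Benjamini-Hochberg over all genes with a threshold of 0.05. It was tested on simulated data. Coordinates and coding sequences came from GENCODE M21 and promoters from RefSeq. Coding sequences were aligned with Biopython 1.88, and figures drawn with matplotlib 3.10.9 in Python 3.11.15.

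Named genes were the 6 kinases, the partner list, the 3 of highest level in the 2 other kinase lists, genes within 50 kb and the genes of highest correlation. Tsacc, Tsks, Spag16, Odf2 and Pdpk1 were chosen from the partner list after their values were seen. The members and lists were chosen with earlier results of these data known. Alternatives were the normalization, pseudocount, filter, replicate block, array weights, scaling to spermatid markers, the samples fitted and each library left out. Added after seeing the data were scaling to the same sum and leaving out both libraries with the highest sums of epididymal markers.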

Additional observations from a re-analysis of the deposited data

How the results depend on the processing

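The 6 comparisons and the difference of effects were each recomputed under 28 alternatives and the F test under 27. Of 1176 fold changes of the kinases, 0 passed the threshold, and 26 moved by more than the spread between replicates. The number of kinases called remained 0 in all but 1 of 223 counts. In the F test, leaving out 1 library at a time gave 0 to 1 kinases called, the 1 being Tssk4 without HFD-AOS replicate 3. The lowest adjusted p of a kinase in a comparison between 2 groups was 0.0521, for Tssk2 with AOS against control under array weights. Scaling to the same sum lowered the log2 fold changes of the kinases by 0.029 to 0.051 in the 5 comparisons with control or HFD. Scaling to the spermatid markers moved the median of all genes from -0.01 to -0.09 for HFD against control, from -0.03 to -0.11 for AOS against control and from -0.02 to -0.12 for HFD-AOS against HFD. Over the whole table, the genes called ran from 0 to 240 for AOS against control (3 as reported, 240 under array weights), from 1 to 26 for HFD-AOSFMT against HFD (3), from 1 to 16 between the FMT labels (1), from 0 to 17 for HFD-conFMT against HFD (0), from 0 to 4 for HFD-AOS against HFD (0), from 0 to 1 for HFD against control (0), and from 1 to 665 for the F test (43). Replicate numbers did not pair the samples: over 45 same-numbered pairs the correlation of deviations ran from -0.243 to 0.167, and 6 of 18 libraries correlated best with their own number. With the replicate number as a block, 0 kinases were called in each comparison and in the F test, where 20 genes were called rather than 43. Without counts, the precision that depth allows is unknown.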
